A study of Mus musculus with 4 samples.

Results

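The Fgf4 and Ccnd1 locus of mouse chromosome 7 holds 3 fibroblast growth factor genes, Fgf3, Fgf4 and Fgf15, and the cyclin D1 gene Ccnd1. These 4 of 21938 protein-coding genes were chosen by position, together with all peaks whose midpoint lay in chr7:144750001-145050000 of mm10, 23 of the 26496 peaks of the merged list. The list comes from ALaP-seq, in which PML carries a peroxidase (APEX) that puts biotin on the chromatin around PML bodies when hydrogen peroxide is supplied. The series holds 2 samples given H2O2 and 2 in which it was left out. All 4 were E14 mouse embryonic stem cells with the APEX-PML knock-in, grown in serum with leukemia inhibitory factor, CHIR99021 (a GSK3 inhibitor, which activates WNT signalling) and PD0325901 (a MEK inhibitor, which blocks ERK signalling). No source used here says whether the knock-in line is a single clone. The merged list gives positions and widths only, so the H2O2+ and H2O2- samples could not be compared, depth is unknown, and the values below are descriptions of 1 list with no replicate error.

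FGF4 is a secreted growth factor that embryonic stem cells make themselves. It acts through FGF receptors and the ERK cascade and prepares the cells to leave the naive state. In mouse, an enhancer in the transcribed 3′ end of Fgf4, bound by SOX2 and OCT4, is a classic example of joint control by these factors. Cyclin D1 activates CDK4 and CDK6 and drives the passage from G1 into S phase; its gene is a target of both WNT and ERK signalling. FGF3 acts in the development of the inner ear and tail, and FGF15 acts in the embryonic brain and, in the adult, as a gut hormone that restrains bile acid synthesis.

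The 23 peaks fell into 2 main groups, around Fgf4 and upstream of Ccnd1. From 10 kb before to 12 kb after the start of the main Fgf4 coding transcript, called the main start below, there were 8 peaks over 21.4 kb. Within 5 kb of the Ccnd1 start there were 6 peaks. The others were 4 around and upstream of Fgf3, 2 upstream of Fgf15, 1 at LTO1, and 2 far upstream of Ccnd1. Together the peaks covered 9691 bp, 3.23% of the region, against 0.284% of the ungapped genome for the whole list. In the region, 16 of 23 peaks (69.6%) were at or above the median width of the list (223 bp), against 50.2% of all peaks. Of the 23 peaks, 10 touched an annotated gene and 13 lay between genes.

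**Figure D1:**
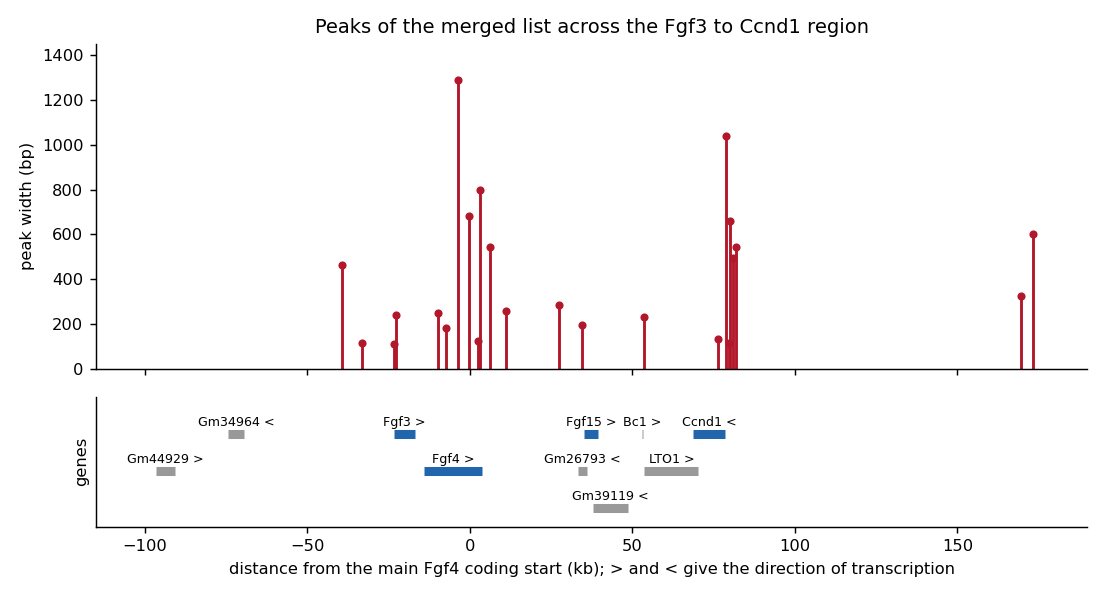
Width in bp of each of the 23 peaks (upper panel) by distance in kb from the main Fgf4 start, with the 4 member genes in blue and other genes in grey below. The widest peaks, of 1289 and 1040 bp, stand beside Fgf4 and at Ccnd1, and no peak lies within 87.2 kb after the group upstream of Ccnd1.

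Fgf4 had a peak directly on the start of its main coding transcript. The peak of 681 bp (chr7:144860961-144861641) reached 425 bp before and 255 bp beyond the main start at 144861386 on the plus strand, and was wider than 96.0% of the list. It covered the 5′ UTR and the first part of the coding sequence. The annotation also holds a longer transcript, which starts 14019 bp further upstream at 144847367 and sets the 5′ end of the gene model. No peak lay within 1 kb of that start; the nearest peak edge was 3971 bp away. Fgf4 is therefore without a promoter peak when only the gene model's 5′ end is used, and has 1 when every annotated start is used. Of the 13511 protein-coding genes without a promoter peak at the gene model's start, 871 (6.45%) had one at another annotated start. Among the 65 genes without a promoter peak and with at least as many distal peaks as Fgf4, the number was 15 (23.1%). Fgf4 itself sets that limit and is among both the 65 and the 15. A peak at another start, within 50 kb of the gene model's start, can itself count as a distal peak. Requiring many distal peaks can therefore raise this share by construction, and no conclusion is drawn from it.

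The 250 bases before the main start, from the RefSeq promoter table of GRCm38.p6 (chr7:144861136-144861385, plus strand), lie inside this peak and are shown because they are the part of the promoter that was listed. Capitals mark 2 SP words (GGGCGG), a KLF word (CCNCNCCC) and an NF-Y word (CCAAT, here on the other strand).
Fgf4 promoter: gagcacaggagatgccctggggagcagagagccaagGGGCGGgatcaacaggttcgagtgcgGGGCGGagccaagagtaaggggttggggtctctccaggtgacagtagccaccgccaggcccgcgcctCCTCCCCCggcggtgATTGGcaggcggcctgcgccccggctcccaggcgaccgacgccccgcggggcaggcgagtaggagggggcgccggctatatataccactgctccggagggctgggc
The SP word was present in 32.7%, the KLF word in 45.9% and the NF-Y word in 33.8% of the 32851 promoters of that table over the same 250 bases. RefSeq promoters were matched for 2 of the 4 genes, Fgf3 and Fgf4.

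The 3′ end of Fgf4 carried a second wide peak. It measured 797 bp (chr7:144864270-144865066), lay wholly in the 3′ UTR with its midpoint 3282 bp after the start, and was wider than 97.8% of the list. A narrow peak of 123 bp (chr7:144863906-144864028) preceded it in the same UTR at a gap of 241 bp. The wide peak contains the only pair of a SOX word (CATTGT or CTTTGT) followed on the same strand by an OCT word (ATGCAAAT or ATGCTAAT) among the 23 peaks. The pair occupies chr7:144864394-144864411, 3008 bp after the main start and 124 bp inside the peak's 5′ edge, and its words are 4 bases apart. It is shown with the bases around it, with both words in capitals.
Fgf4 3′ UTR site: aaaactCTTTGTttggATGCTAATgggata
Such a pair, with up to 4 bases between the words and on either strand, was found in 22 of the 26496 peaks of the list. Over windows of 797 bp centred on every peak it was found in 29 (0.109%). The largest spacer searched was set with the published mouse Fgf4 site in mind, so its presence here is a description. The list contains no value that bears on whether either factor was bound.

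Upstream of the main start lay the widest peak of the region, 1289 bp (chr7:144857089-144858377) with its midpoint 3653 bp before the main start. It was wider than 99.6% of the list. Relative to the longer transcript it is intronic, as are 2 further peaks of 182 bp (chr7:144854122-144854303) and 249 bp (chr7:144851338-144851586). The widest peak held 13 KLF words, 9 CTCF core words (CCCTC), 4 NF-Y words and 2 SOX words. It also held 1 SP word, 1 ESRRB word (AAGGTCA) and 1 AP-1 word (TGANTCA), and 26.9% of it was repeat-masked. A peak of this width has more room for words than most of the list. Its central 300 bases (chr7:144857583-144857882, plus strand) are shown because it is the widest peak beside Fgf4. Capitals mark a run of overlapping KLF words and an NF-Y word.
Upstream peak: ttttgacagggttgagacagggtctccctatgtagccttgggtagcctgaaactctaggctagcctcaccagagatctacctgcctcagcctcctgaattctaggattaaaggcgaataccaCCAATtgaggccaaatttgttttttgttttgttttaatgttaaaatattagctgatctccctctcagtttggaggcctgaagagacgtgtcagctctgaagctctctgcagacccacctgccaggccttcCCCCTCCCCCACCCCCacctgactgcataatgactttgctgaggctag
Downstream of the gene, peaks of 544 bp (chr7:144867270-144867813) and 260 bp (chr7:144872522-144872781) lay 6156 and 11266 bp after the start. The 7 peaks within 20 kb of the main start other than the promoter peak were CpG-poor, with CpG observed/expected of 0.076 to 0.26, against 0.75 in the promoter peak itself.

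Fgf3 had 2 narrow promoter peaks. The first, of 110 bp (chr7:144837887-144837996), ended 87 bp before the farther upstream of the 2 annotated Fgf3 starts, at 144838083. The second, of 242 bp (chr7:144838609-144838850), began 14 bp after the other start at 144838595 and covered the 5′ UTR and 143 bp of coding sequence. The narrower one exceeded only 4.82% of the list in width, and the other 54.5%. The second peak had the highest GC content of the region, 74.4%. The first, shown whole on the plus strand because it lies just outside the annotated transcripts, holds 1 SP word on the other strand, in capitals. Its 1 CTCF core word is not marked.
Fgf3 upstream peak: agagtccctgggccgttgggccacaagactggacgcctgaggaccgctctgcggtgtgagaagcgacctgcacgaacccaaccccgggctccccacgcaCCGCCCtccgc
Further upstream, peaks of 117 bp (chr7:144828192-144828308) and 465 bp (chr7:144821898-144822362) lay 9833 and 15953 bp before the farther upstream start. The nearer one held 1 SOX, 3 KLF, 1 NF-Y and 1 CTCF core word. The farther one held 1 SOX, 2 KLF, 1 SP, 1 TCF (CTTTGAT) and 5 CTCF core words. Over whole peaks, SOX words were found in 30.2% of the list. The peak at 144821898 was the first of the region, and the gap before it was 239 kb.

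**Figure D2:**
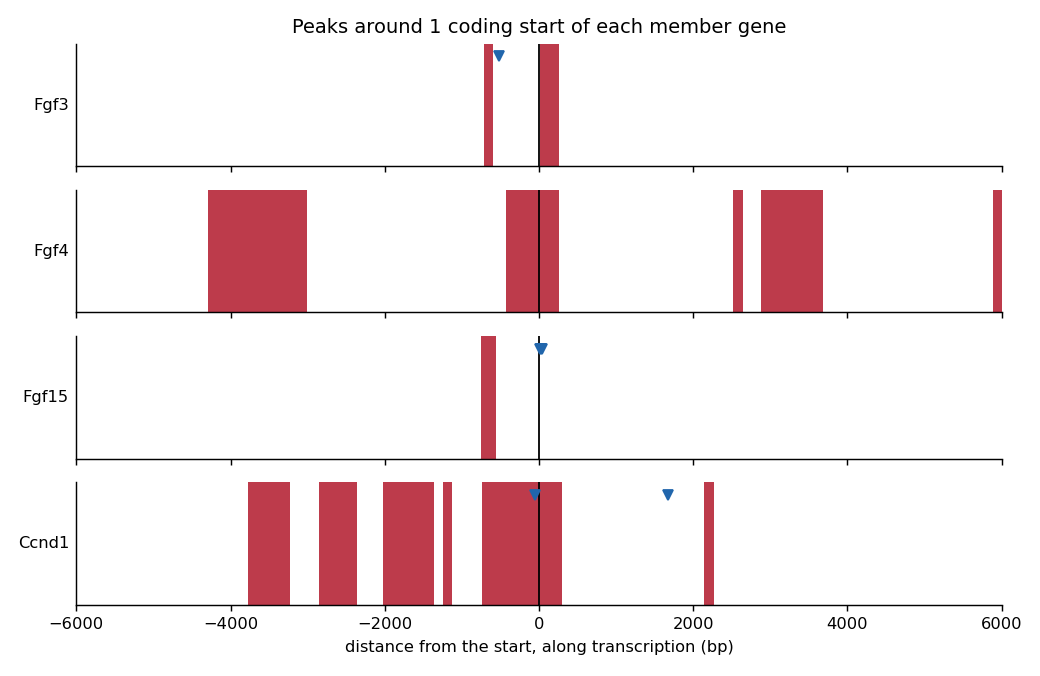
Peaks (red) within 6 kb of 1 coding start of each gene (black line), in bp along the direction of transcription. Blue triangles mark its other annotated starts within 6 kb. The other Fgf4 start, 14019 bp upstream, is outside the panel. Fgf4 and Ccnd1 start inside peaks of 681 and 1040 bp, while the Fgf15 peak stops 553 bp before the start.

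Fgf15 had 1 promoter peak, and no peak touched its body. The peak of 198 bp (chr7:144895781-144895978) ended 553 bp before the Fgf15 start at 144896531 and lay in an exon of the antisense RNA Gm26793, which runs in the opposite direction. It held none of the SOX, OCT, KLF, SP, ESRRB, STAT, TCF, ETS, AP-1, NF-Y, CRE, E2F or EGR words. Its only words were 2 CTCF core words, which are not marked. The whole peak is shown on the plus strand, as the only one at an Fgf15 start, and has no capitals.
Fgf15 upstream peak: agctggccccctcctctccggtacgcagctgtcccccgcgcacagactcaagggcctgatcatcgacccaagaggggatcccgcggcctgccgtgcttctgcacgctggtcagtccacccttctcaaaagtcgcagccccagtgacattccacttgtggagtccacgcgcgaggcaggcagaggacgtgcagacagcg
A second peak of 283 bp (chr7:144888832-144889114) lay 7558 bp before the start. It was the only 1 of the 23 with a STAT word (TTCNNNGAA). It also held a SOX, a TCF, an ETS (CCGGAA), an AP-1 and a CTCF core word. The STAT word overlaps both the TCF and the AP-1 word. Over whole peaks, the STAT word was found in 7.55% of the list.

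Ccnd1 had the densest group. Its promoter peak of 1040 bp (chr7:144939568-144940607) reached 738 bp before and 301 bp beyond the Ccnd1 coding start at 144939869 on the minus strand and was wider than 99.2% of the list. It covered the 5′ UTR and 126 bp of coding sequence. Upstream of it followed 4 more peaks at gaps of 388, 126, 332 and 368 bp. They measured 114 bp (chr7:144940996-144941109), 662 bp (chr7:144941236-144941897), 497 bp (chr7:144942230-144942726) and 545 bp (chr7:144943095-144943639). A narrow intronic peak of 135 bp (chr7:144937601-144937735) lay on the other side, within 1 kb of the start of a retained-intron transcript of the gene that begins at 144938197. Ccnd1 had 5 peaks with midpoints in the 5 kb upstream of the gene model's start, the promoter peak included. Their whole widths sum to 2858 bp, part of which lies past the start, inside the gene. Of all protein-coding genes 7 had at least 5 such peaks, Ccnd1 included, and 99.9% had a smaller sum of widths.

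The centres of these 4 upstream peaks are shown on the minus strand, the strand of Ccnd1, because the other members had fewer peaks in the 5 kb before their starts. The first is whole and the others are their central 200 bases. Capitals mark SOX, OCT, KLF, SP, ETS, EGR (GTGGGCG) and NF-Y words on either strand.
Ccnd1 upstream 1, chr7:144940996-144941109: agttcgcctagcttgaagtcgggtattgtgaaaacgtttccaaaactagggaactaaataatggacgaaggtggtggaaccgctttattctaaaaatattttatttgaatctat
Ccnd1 upstream 2, chr7:144941467-144941666: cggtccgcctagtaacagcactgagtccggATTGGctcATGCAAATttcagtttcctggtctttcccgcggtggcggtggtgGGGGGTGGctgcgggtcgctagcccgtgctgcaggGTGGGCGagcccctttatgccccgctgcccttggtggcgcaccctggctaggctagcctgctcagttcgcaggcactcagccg
Ccnd1 upstream 3, chr7:144942378-144942577: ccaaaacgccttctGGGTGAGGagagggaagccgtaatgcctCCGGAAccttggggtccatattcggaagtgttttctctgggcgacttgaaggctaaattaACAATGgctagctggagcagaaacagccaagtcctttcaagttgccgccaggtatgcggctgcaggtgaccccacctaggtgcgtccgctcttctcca
Ccnd1 upstream 4, chr7:144943267-144943466: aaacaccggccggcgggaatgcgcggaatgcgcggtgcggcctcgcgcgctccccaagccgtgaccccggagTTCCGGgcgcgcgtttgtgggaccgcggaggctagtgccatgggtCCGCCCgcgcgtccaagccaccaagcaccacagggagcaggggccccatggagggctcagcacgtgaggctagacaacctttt
The first was the most AT-rich peak of the region, with 36.0% GC, and held none of the words searched. The second has an NF-Y word 3 bases before an OCT word, 1700 bp before the 5′ end of the Ccnd1 gene model. The promoter peak held another OCT word, 1 TCF word, 16 KLF words, 12 CTCF core words, 1 SP word and 1 NF-Y word. Over whole peaks, OCT words were found in 5.66% and TCF words in 4.63% of the list, most of which is far narrower than this peak. ETS words were found in upstream peaks 2, 3 and 4. Over whole peaks, they were found in 16.8% of the list, but these 3 peaks are wider than its median of 223 bp. At equal length, in the central 200 bp, ETS words were found in 2 of the 23 peaks, upstream peaks 3 and 4, against 13.0% of the list.

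Farther upstream of Ccnd1 the next peaks were 87.2 kb away. They measured 326 bp (chr7:145030811-145031136) and 601 bp (chr7:145034205-145034805), lay between genes 91.0 and 94.6 kb before the 5′ end of the Ccnd1 gene model, and differed in composition, with CpG observed/expected of 0.56 and 0.071. Between Fgf15 and Ccnd1, a peak of 231 bp (chr7:144914806-144915036) ended 64 bp before the start of LTO1, a gene for a factor in ribosome biogenesis. The same peak lay within 1 kb of Bc1, a small noncoding RNA of neurons. Ano1, a calcium-activated chloride channel gene whose start falls in the region, had no promoter peak and 0 distal peaks within 50 kb. The noncoding genes Gm44930, Gm10152, Gm44929, Gm34964, Gm9711 and Gm39119 had no peak in their bodies or within 1 kb of a start. The next protein-coding genes outside the region were Fadd, with a promoter peak of 192 bp, and Tpcn2, with one of 437 bp; 1810010D01Rik, which lies within Tpcn2 and starts nearer to the region, had none.

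Few windows of the genome held as many peaks as the region. Its 23 peaks compare with 3.59 at the mean density of chromosome 7, a ratio of 6.41 (exact Poisson 95% interval of the count 14.6 to 34.5, which covers counting error only). Of 8855 windows of 300 kb, on a grid aligned to the region, 77 held more peaks and the median window held 1. On a grid from base 1 of each chromosome, which splits the locus, its fullest window held 14 peaks and 288 windows held more. On chromosome 7, 8 of 474 windows of the aligned grid held more. The window before it held 3 peaks and the window after it 13. With peaks joined across gaps of up to 12500 bp, the peaks from upstream of Fgf3 to downstream of Fgf4 formed 1 cluster of 12 peaks over 50.9 kb. Of 15249 such clusters, single peaks included, 5212 held 2 or more peaks and 58 had more peaks than this one. This cluster depends on 1 gap of 12487 bp between the Fgf3 and Fgf4 peaks, just under the joining limit. The 6 peaks at Ccnd1 formed another cluster over 6039 bp, and 309 clusters had more. The Fgf3 and Fgf4 cluster held 5059 bp of peaks and that of Ccnd1 2993 bp, which placed them 40th and 137th by that measure. The region was proposed with results of these data known, so these ranks are given without a test.

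**Figure D3:**
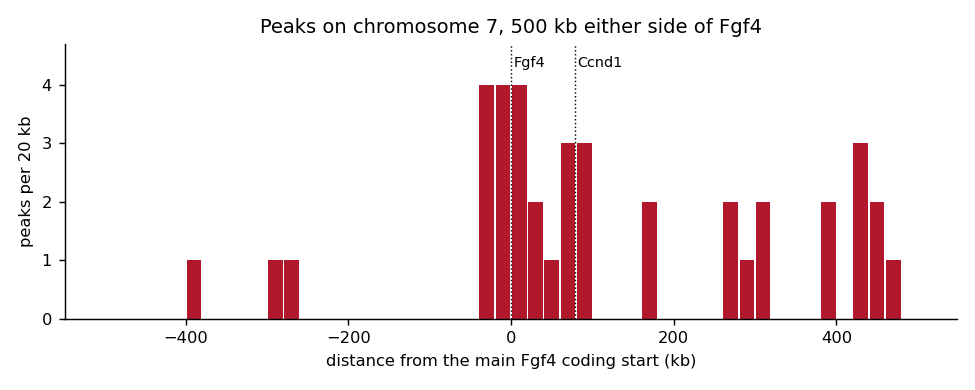
Peaks per bin of 20 kb by distance in kb from the main Fgf4 start, 500 kb either side. The bins from 40 kb before to 100 kb after the start hold all but 2 of the 23 peaks, and the gap before them is 239 kb.

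Counted per gene, Fgf15 and Fgf4 had the most distal peaks of the 4, although they share them. Distal peaks are those with midpoints within 50 kb of the gene model's start and outside its own 1 kb window. Promoter peaks of other genes count, and so do peaks at a gene's own starts outside that window, such as the main Fgf4 start. Fgf15 had 16, Fgf4 14, Fgf3 10 and Ccnd1 7, against a median of 1 over all protein-coding genes. Of these genes 99.6% had fewer than Fgf15, 99.2% fewer than Fgf4, 96.98% fewer than Fgf3 and 91.7% fewer than Ccnd1. All 10 distal peaks of Fgf3 were also among the 14 of Fgf4 (71.4% of the Fgf4 peaks). Fgf4 and Fgf15 had 9 in common, 64.3% of those of Fgf4 and 56.3% of those of Fgf15. Fgf15 and Ccnd1 had 6 in common, and Fgf3 and Ccnd1 none. The order changed with distance: within 20 kb the counts were 9 for Fgf4, 5 for Fgf3, 5 for Ccnd1 and 2 for Fgf15. Around its main start, Fgf4 had 7 distal peaks within 20 kb and 13 within 50 kb. Without peaks within 1 kb of any protein-coding gene model's start, the counts within 50 kb were 14 for Fgf15, 11 for Fgf4, 10 for Fgf3 and 5 for Ccnd1. The 11 for Fgf4 still include the peak on its main start.

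**Figure D4:**
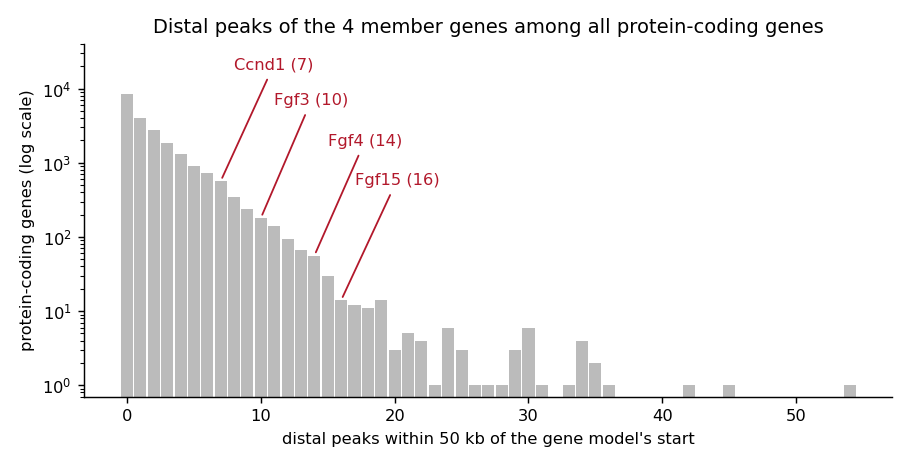
Number of protein-coding genes (log scale) by distal peaks within 50 kb of the gene model's start, with the 4 genes marked. All 4 lie to the right of the median of 1, from Ccnd1 with 7 to Fgf15 with 16.

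Promoter peaks were present at 3 of the 4 genes at the gene model's start (Fgf3, Fgf15 and Ccnd1), against 38.4% of all protein-coding genes. With any annotated start all 4 had one, against 42.4% of all genes. With 500 bp either side of the gene model's start in place of 1 kb, or with only peaks at or above the median width, 2 had one (Fgf3 and Ccnd1). The shares over all genes at these settings are not given here, so these counts have no background to be read against. Their widest promoter peaks were 1040 bp at Ccnd1, 681 bp at Fgf4, 242 bp at Fgf3 and 198 bp at Fgf15.

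Genes with the most similar peak counts were sought among genes with the same promoter state outside the region. The measure was the log2(count + 1) of all peaks within 10, 50 and 100 kb of the gene model's start. Fgf4 had 4, 14 and 21 peaks in these windows. The nearest were Ltbp4 (4, 13 and 20), Hyal3 (4, 15 and 23), Gm11634 (4, 15 and 19), Lenep (4, 14 and 25) and Mroh2a (4, 17 and 21), at distances of 0.12 to 0.26. Of these, Ltbp4 and Mroh2a also had a peak at another annotated start, as Fgf4 did. The Fgf4 counts are from the start of its longer transcript, 14019 bp before the main start. The 4 within 10 kb therefore include both Fgf3 promoter peaks and leave out the peak on the main start. Genes alike around the main start were not sought. Ccnd1 had 6, 8 and 19 peaks. Bax, which encodes a pro-apoptotic protein, had the same 3 counts. The next were Gm867 (6, 8 and 22), Apoc1 (5, 8 and 20), Mmp11 (6, 8 and 23) and Ftl1 (5, 8 and 17).

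CpG observed/expected ranged from 0.64 to 1.43 in the 6 peaks at Ccnd1 and from 0.076 to 0.75 in the 8 peaks around Fgf4, and the ranges overlapped through the Fgf4 promoter peak. Without the peak on the main coding start of each gene, it ranged from 0.65 to 1.43 in 5 peaks at Ccnd1 and from 0.076 to 0.26 in 7 around Fgf4. The value of 1.43 is from the narrow peak of 114 bp with 36.0% GC, where few bases set the ratio. The share of all peaks that falls in either range is not given here, so no conclusion is drawn from their separation. Of these 5 peaks at Ccnd1, 4 lie upstream of the gene, more than 1 kb from any annotated start. Over the whole list, the median CpG observed/expected was 0.80 in peaks at protein-coding promoters and 0.23 in the others. Over all 23 peaks the medians were 0.56 for CpG observed/expected and 58.3% for GC, against 0.38 and 55.8% for the whole list. Outside the members' promoters the median CpG observed/expected was 0.26 in 17 peaks. Reads were mapped to a repeat-masked genome, and the median masked share was 1.23% in the region against 6.81% in the list.

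**Figure D5:**
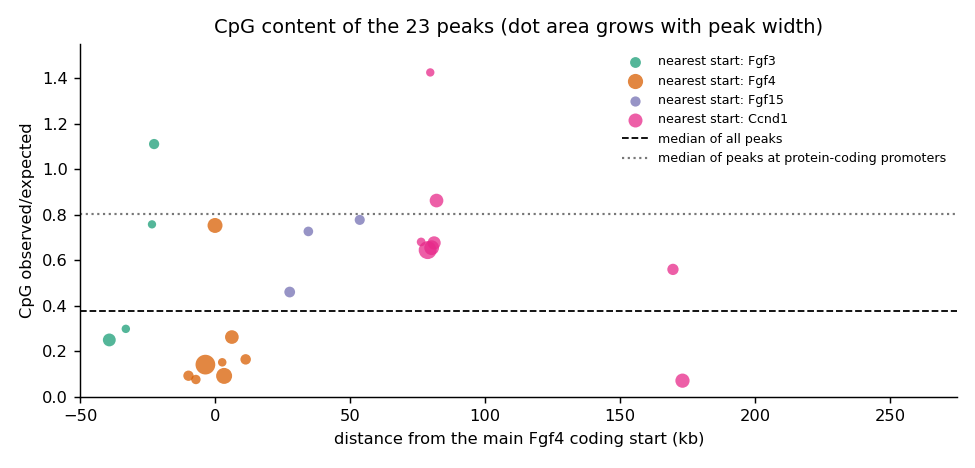
CpG observed/expected of each of the 23 peaks by distance in kb from the main Fgf4 start, coloured by the member with the nearest start, with dot area growing with width. Peaks around Fgf4 other than its promoter lie between 0.076 and 0.26, below the dashed list median of 0.38, its promoter peak at 0.75, and those around the Ccnd1 start at 0.64 or higher.

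Short sequence words in the central 200 bp, on both strands, were present at shares whose 95% intervals included the share of the whole list for each of the 15 words. KLF words were found in 11 of 23 peaks (47.8%, exact Clopper-Pearson 95% interval 26.8 to 69.4%), against 45.4% of all peaks. NF-Y words were found in 7 (30.4%, 13.2 to 52.9%), against 23.2%. SP words were found in 6 (26.1%, 10.2 to 48.4%), against 29.0%. SOX words were found in 3 (13.0%, 2.78 to 33.6%), against 26.3%, and OCT words in 2 (8.70%, 1.07 to 28.0%), against 4.66%. ESRRB and EGR words were each found in 3, against 7.09% and 5.66%, ETS words in 2, against 13.0%, and the TCF word in 1, against 3.61%. The short CTCF core word (CCCTC) was found in 14, against 56.1%. The SOX-OCT pair, STAT, AP-1, CRE (TGACGTCA) and E2F (TTTGGCG) words were found in none of the centres, an upper bound of 14.8% each, and in 0.0868%, 5.56%, 4.90%, 0.842% and 1.25% of all. The Fgf4 pair lies 274 bp from the midpoint of its peak and so outside the centre.

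Among the genes of the pathways, the 4 members included, FGF ligand genes mostly lacked promoter peaks and the intracellular genes mostly had them. A promoter peak at the gene model's start was present at 2 of 22 FGF ligand genes (9.09%), Fgf3 and Fgf15, against 38.4% of all genes. No ligand gene outside the region had one, and Fgf1, Fgf2, Fgf4 and Fgf5 were among those without. With any annotated start the count was 5 (22.7%), against 42.4% of all genes. Fgf4, Fgf9 and Fgf10 were added, the last 2 named after their values were seen. The median number of distal peaks was 3.5 over the ligand genes, against 1 over all genes, and Fgf15, Fgf4 and Fgf3 had the highest counts. That median includes these members, which share distal peaks and raise it. Of 7 genes for receptors and cofactors, 2 (28.6%) had a promoter peak, Fgfr2 (360 bp) and Fgfr1 (258 bp), against 38.4% of all genes. Fgfr3, Fgfr4, Fgfrl1 and Klb were among those without, although Fgfr3 had one at another start. With any annotated start the count was 3 (42.9%), near the 42.4% of all genes.

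In the ERK cascade, which carries the FGF signal, 12 of 17 genes (70.6%) had a promoter peak, beside 38.4% over all protein-coding genes. Among them were the MEK genes Map2k2 (528 bp) and Map2k1 (342 bp) and the adaptor gene Gab1 (416 bp), and Frs3, Sos2, Hras and Araf were among those without, although Frs3 had 2 at other starts. Genes around cyclin D, Ccnd1 included, had one at 15 of 20, against the same 38.4%. After Ccnd1, the widest were at E2f3 (661 bp), the pocket protein gene Rbl1 (646 bp) and Cdk6 (621 bp). The other cyclin D genes had narrower ones, 466 bp at Ccnd3 and 117 bp at Ccnd2. Cdkn2b, Cdkn1a, Rb1 and E2f2 were among those without, and Cdkn1a and E2f2 had one at another start. The median number of distal peaks was 2 in the ERK cascade and 4 around cyclin D, against 1 over all genes.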

How the data were processed

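Per the series' design text and the submitters' processing notes, the authors trimmed reads with Trimmomatic, mapped them with Bowtie2 2.3.5.1 to repeat-masked mm10 and removed blacklisted and greylisted regions with bedtools. No source used here names the peak caller, threshold or merging rule. The deposited merged list gives start and end positions of peaks, with other values such as height or score absent, and no value per sample.

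Positions were joined to GENCODE M21 and to the GRCm38.p6 sequence (mm10 names the same assembly); 0 chromosomes had a peak past their end. Python 3.11.15, numpy 2.4.6, pandas 2.3.3, scipy 1.17.1 and pysam 0.24.0 were used. A promoter peak shares at least 1 bp with 1 kb either side of a start. Words were matched exactly, and the search and overlap steps were tested on simulated data. No test was run: the members, lists, words and rule for named genes (the members, genes of the region, for each pathway list at most 4 genes whose promoter peak was widest and the first 4 without one, and the 5 most alike genes) were chosen with earlier results of these data known. One gene that the rule names is not reported here.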

Additional observations from a re-analysis of the deposited data

How the results depend on the processing

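Of 82 alternative values, 67 stayed near the main value: within 1.5 times it for counts and medians, and inside its 95% binomial interval for window ranks and word shares. Word shares made up 45 of the 82, and 42 of these stayed. Their intervals rest on 23 peaks and are wide, so staying inside says little. The share of 300 kb windows with fewer peaks was 98.98%, and it was 96.0% on a grid from base 1, which splits the locus, 99.6% with only peaks at or above the median width, and 98.5% per unmasked base. Distal counts within 20 kb were 5 for Fgf3, 9 for Fgf4 and 2 for Fgf15, and Ccnd1 had 18 within 100 kb. With only the wider peaks, Fgf4 had 9 and Ccnd1 4. Joining across 25 kb gave 2 clusters of 2 or more peaks in place of 4. In the central 100 bp, KLF words were found in 21.7% and the CTCF core word in 30.4% of the peaks, and over whole peaks SP words in 52.2%. These windows differ in length by construction. The median width was 521 bp with only the wider peaks, and the median CpG ratio 0.26 without the peaks at members' promoters. The count from the main Fgf4 start, that median, whole-peak words and coding starts were chosen after seeing the data. Of 4 genes, 3 had a promoter peak at the gene model's start, against 38.4% of all genes, and 4 with any annotated start, against 42.4%. With 500 bp either side, or with only the wider peaks, 2 had one, and the share over all genes is not given for these settings. No paired analysis was possible because the list has no columns per sample, and no replicate could be left out for the same reason. Whether any peak differs between the H2O2+ and H2O2- samples was not tested.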

Other observations

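The genes with at least 5 peaks with midpoints in the 5 kb upstream of the gene model's start, other than Ccnd1, were 2410015M20Rik and C130026I21Rik with 6 each, and Gm21411, Hist1h2bn, Pou5f1 and Zfp992 with 5 each. The whole widths of these peaks, counted also where a peak runs past the start, sum to 3608 bp at Hist1h2bn, 2050 bp at Pou5f1, 1392 bp at 2410015M20Rik, 768 bp at Zfp992, 757 bp at Gm21411 and 686 bp at C130026I21Rik, beside 2858 bp at Ccnd1. They are named after their values were seen.

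In the 22 peaks of the list that hold a SOX-OCT pair, the words were 1 base apart in 13, 4 bases apart in 4 including Fgf4, 2 bases apart in 2, adjoining in 2 and 3 bases apart in 1.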
